A study of Mus musculus with 32 samples.

Results

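Pth, the gene for parathyroid hormone, is 1 gene of the 35458 in the tables of 32 RNA libraries, and it was chosen by name. Its level in a library is the sum of the reads, or of the TPM (an abundance per transcript length that sums to a fixed total in each library), assigned to its Ensembl transcripts. The tables hold 1 such transcript of 710 bases. GENCODE release M21 gives it 3 exons of 120, 91 and 499 bases, with a coding length of 348 bases including the stop codon.

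Parathyroid hormone is made by the chief cells of the parathyroid gland and raises blood calcium by acting on bone and kidney. The cells release it when the calcium-sensing receptor detects low calcium, while vitamin D and FGF23 with its co-receptor Klotho lower its production. The hormone is made as a longer precursor that enters the endoplasmic reticulum, loses its signal peptide and then a short propeptide, and is stored in granules together with chromogranin A, the product of Chga. The Pth level is set both by transcription, which in this gland depends on factors such as Gcm2 and Gata3, and by proteins that bind the messenger RNA and change its stability.

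The study compared native parathyroid gland cells with parathyroid cells grown from mouse embryonic stem cells (ESC) inside animals that lack Gcm2 and so cannot form the gland themselves. Each library came from 10 to 20 cells taken by micromanipulator because they showed red tdTomato fluorescence, and its cDNA was synthesised by SMART-Seq HT, a full-length method without molecular identifiers. There are 8 experiments with 4 biological replicates in each. Native control cells were from C57BL/6 mice with 1 Pth allele carrying P2A-tdTomato, labelled male and 8 weeks old in experiment 1 and female and 11 weeks old in experiment 2. Mouse-host cells came from Gcm2-/- mice on a BDF1B6 background complemented with Pth-tdTomato mouse ESC and aged 9 weeks, in 4 experiments of which 1 to 3 are labelled female and 4 male. Rat-host cells, in 1 experiment of unknown sex, grew from the same kind of Pth-tdTomato mouse ESC in a neonatal Wistar rat that was Gcm2-/-. Graft cells were grafted ESC-derived cells of the Gcm2-/- mouse kind, labelled male and 12 weeks old, in 1 experiment.

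All 32 libraries thus carry a tdTomato reporter in Pth, and it was this reporter that selected the cells, so the presence of Pth reads follows from the choice of cells. Whether the transcript index used for counting held the reporter allele is not given in the sources used here, so reads of that allele may be counted in Pth only in part, in all groups. The labels do not give the number of reporter alleles in the ESC, the number of animals behind an experiment, or whether a sex label is that of the host or of the donor cells. Rat host and graft have 1 experiment each, so host species, neonatal age and experiment cannot be told apart for the rat host, nor grafting and experiment for the graft. In pools of cells, fewer cells that express a gene and less of its RNA per cell cannot be told apart. Control experiment 1 held 29471254 to 32264864 reads per library and the other 28 libraries 9470744 to 15098391. Between 11566 and 13445 genes had a read. Pth itself had 579137 to 3397315 reads, so that counting error was at most 0.131% of its level.

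The promoter of Pth and that of Chga, its granule partner and the gene it is compared with here, are shown because these are the genes with the highest and the next highest TPM in every library. Both are RefSeq sequences of build GRCm38.p6 from 250 bases before to 50 bases after the gene's start. Pth lies on the minus strand at chr7:113388524-113388823 and Chga on the plus strand at chr12:102554691-102554990. Capitals mark matches, on either strand, to the motifs searched.
Pth: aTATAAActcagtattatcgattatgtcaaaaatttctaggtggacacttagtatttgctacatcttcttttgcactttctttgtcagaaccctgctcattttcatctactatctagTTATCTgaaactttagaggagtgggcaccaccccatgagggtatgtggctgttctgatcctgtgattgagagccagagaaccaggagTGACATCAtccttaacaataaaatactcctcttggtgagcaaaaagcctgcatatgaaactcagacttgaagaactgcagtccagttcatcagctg
Chga: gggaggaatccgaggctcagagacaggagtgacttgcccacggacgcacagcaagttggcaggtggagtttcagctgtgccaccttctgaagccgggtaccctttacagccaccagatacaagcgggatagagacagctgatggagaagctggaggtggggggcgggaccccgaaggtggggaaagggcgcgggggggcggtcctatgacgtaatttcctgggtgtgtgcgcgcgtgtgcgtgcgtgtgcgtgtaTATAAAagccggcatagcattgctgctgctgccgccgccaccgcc
Counted with the RefSeq start as 0, the Pth window had TGACATCA at -46, a match to TGACNTCA, the cAMP response element type known from the human PTH promoter. This motif was in 8.83% of 32851 RefSeq promoters of the same length. Pth also had TTATCT at -133, the reverse complement of the GATA type AGATAA (11.2% of promoters), and TATAAA at -249 (13.6%). Of the motifs searched, the Chga window held only TATAAA, at position 5. That window also has the letters tgacgtaa, which come near TGACNTCA but do not match it and were not counted. Neither window held CCAAT (37.4%) or the GCM type ATGCGGGT (0.256%), and no matches overlapped. G and C made up 40.3% of the Pth window and 62.0% of the Chga window, against a median of 52.7%. A match is a description of these letters and not a measured binding site.

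Pth was the most abundant transcript of these cells when length was taken into account. It ranked first by TPM and Chga second in all 32 libraries. By reads, which favour long transcripts, Chga ranked first and Pth second in all 32. In every library Pth TPM was at least 9.95-fold the highest TPM of any gene other than these. Pth took 4.93% to 5.24% of reads in the rat host and 6.88% to 12.1% in the other 28 libraries. Together, Pth and Chga took 19.2% of reads in the rat host (mean of 4 libraries) and 30.1% elsewhere (mean of 7 experiments). No reads fell on Pthlh, which encodes parathyroid hormone-related protein, on Pth2, or on the receptor gene Pth2r. Over all 461864956 reads a count of 0 allows up to 3 reads, or 0.00650 CPM, and counting error is all that this limit covers. Pth1r, the main receptor of the hormone, had 149 reads in 4 of the 32 libraries.

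Level is given below as CPM (read counts scaled to a common library size), scaled by the TMM method, which sets library sizes from the bulk of genes. In control experiment 1 Pth was at 115892, 103422, 100059 and 96646 CPM in replicates 1 to 4 (mean 104005 ± 8394, SD, n = 4). In control experiment 2 it was at 78644, 97342, 104251 and 96656 CPM (94223 ± 10938, SD, n = 4). The native cells of both experiments covered overlapping ranges, with replicate 1 of experiment 2 the lowest of the 8 control libraries. In mouse-host experiment 1 the values were 97498, 90306, 72938 and 77389 CPM (84533 ± 11356, SD, n = 4). In mouse-host experiment 2 they were 71456, 81257, 85689 and 75312 CPM (78429 ± 6299, SD, n = 4). The 4 lowest mouse-host libraries were among these 8, and all 4 of experiment 2 were below every library of mouse-host experiment 3. In mouse-host experiment 3 the values were 106260, 94375, 88244 and 95083 CPM (95990 ± 7503, SD, n = 4). In mouse-host experiment 4 they were 136900, 88179, 80395 and 86845 CPM (98080 ± 26103, SD, n = 4). Replicate 1 of experiment 4 was the highest of the 32 libraries, and without it the mean of that experiment was 85140 ± 4163 CPM (SD, n = 3). In the rat host Pth was at 45403, 42200, 42536 and 42419 CPM (43140 ± 1516, SD, n = 4). In the graft it was at 89079, 104350, 112732 and 124616 CPM (107694 ± 14938, SD, n = 4). All 4 rat-host libraries were below all of the other 28, and the graft overlapped both controls.

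**Figure D1:**
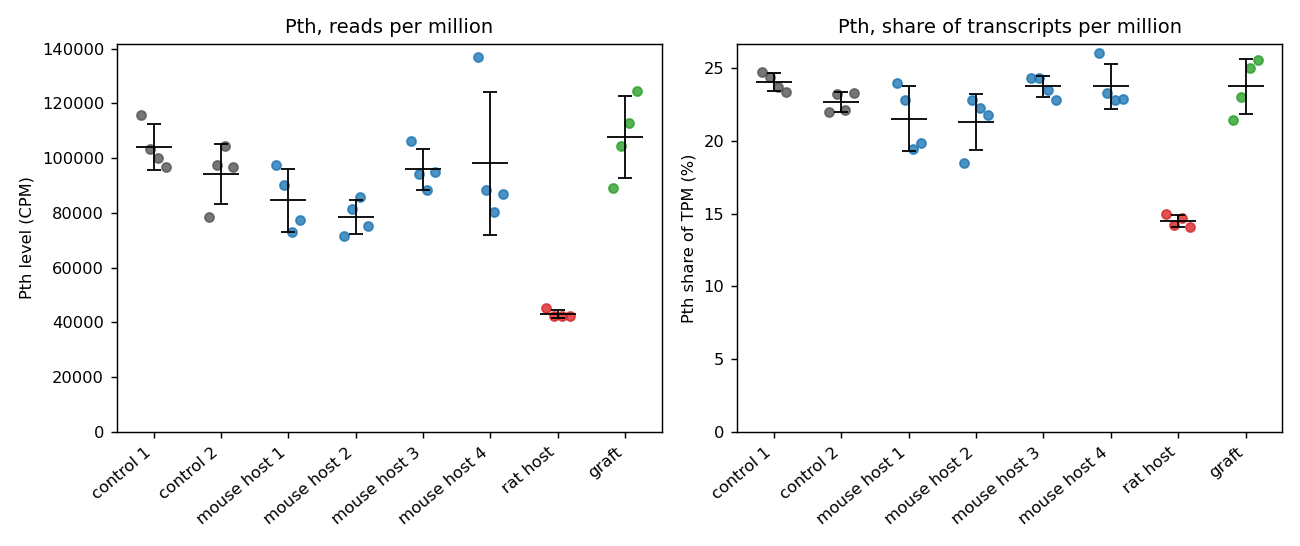
Pth level in CPM (left) and Pth share of TPM in percent (right) for each of the 32 libraries by experiment, where points are libraries and black bars are the mean and SD of 4. The 4 rat-host libraries lie at 42200 to 45403 CPM, under every other library, and mouse-host experiment 4 replicate 1 is the highest at 136900 CPM.

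By mean log2 CPM, the order from high to low was graft (16.71), control experiment 1 (16.66), mouse-host experiment 4 (16.55), mouse-host experiment 3 (16.55), control experiment 2 (16.52), mouse-host experiment 1 (16.36), mouse-host experiment 2 (16.26) and rat host (15.40). Levels of 4 against 4 libraries were compared for all 28 pairs of experiments by a two-sided exact permutation test on log2 CPM, whose smallest possible p is 0.0286. The 7 pairs with the rat host all reached it, as did 3 others, all involving mouse-host experiment 2, which was below control experiment 1, mouse-host experiment 3 and the graft. None of the 28 was past an adjusted p of 0.05 after Benjamini-Hochberg adjustment in this exact permutation test, and the smallest adjusted p was 0.0800. With this smallest possible p, the 7 rat-host pairs alone could not pass adjustment over 28 pairs, however far apart the levels. The lack of calls therefore says little about the size of a difference. Of neighbours in the order, mouse-host experiment 2 and the rat host were the only ones whose libraries did not overlap. Without its replicate 1, mouse-host experiment 4 had a mean CPM between those of control experiment 2 and mouse-host experiment 1.

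Pth in native and in mouse-host cells was not told apart by the test. The control mean was 99114 CPM (SD 6917 over 2 experiments) and the mouse-host mean 89258 CPM (SD 9359 over 4 experiments). The log2 fold change of mouse host against control was -0.16 (SE 0.10) and the adjusted p 0.895 in edgeR's quasi-likelihood test on read counts summed per experiment, with Benjamini-Hochberg adjustment over 15698 genes. This test called 0.0% of genes at an adjusted p below 0.05, with 691 at an unadjusted p under 0.05, while DESeq2 called 160 and limma voom 42. None of the 49 alternatives run called Pth here. A p above the threshold does not show equal levels.

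In the rat host Pth was lower than in either of the other arms that supply more than 1 experiment. Against the mouse host its log2 fold change was -0.998 (SE 0.14, adjusted p 0.0354, edgeR), lower in 4 of 4 rat-host libraries than in each of the 16 mouse-host libraries. In this comparison 0.643% of the 15698 genes tested were called, 0.427% lower and 0.217% higher. Against the control it was -1.16 (SE 0.16, adjusted p 0.0334, edgeR), in a comparison with 0.261% of genes called, 0.229% lower and 0.0319% higher. Both comparisons use the same 4 rat-host libraries, and the fit takes the spread of that single experiment to be like that of the other arms. Both calls were lost on TPM, where the difference was smaller. In the rat host Pth took 14.5% ± 0.420 of TPM (SD, n = 4), against 22.6% ± 1.35 over the 4 mouse-host experiments and 23.3% ± 0.970 over the 2 control experiments. On log2(TPM + 1) the change against the mouse host was -0.64 (adjusted p 0.179, limma). Since TPM has a fixed sum, the share that Pth and Chga take sets what is left for all other genes. With TPM rescaled to the genes other than Pth and Chga, a setting chosen after the data were seen, the change was -0.88 (adjusted p 0.150, limma). Reads with effective-length offsets gave -0.995 (adjusted p 0.0306, edgeR). Leaving out either control experiment, or mouse-host experiment 3 or 4, ended the call against the mouse host (adjusted p 0.0683 to 0.0925) with a change of -0.998 to -0.953. The call against the control was lost without either control experiment or mouse-host experiment 3 (adjusted p 0.0785 to 0.213, edgeR), with a change of -1.23 to -1.08, and without any of 3 single mouse-host libraries (adjusted p 0.0507 to 0.0519).

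**Figure D2:**
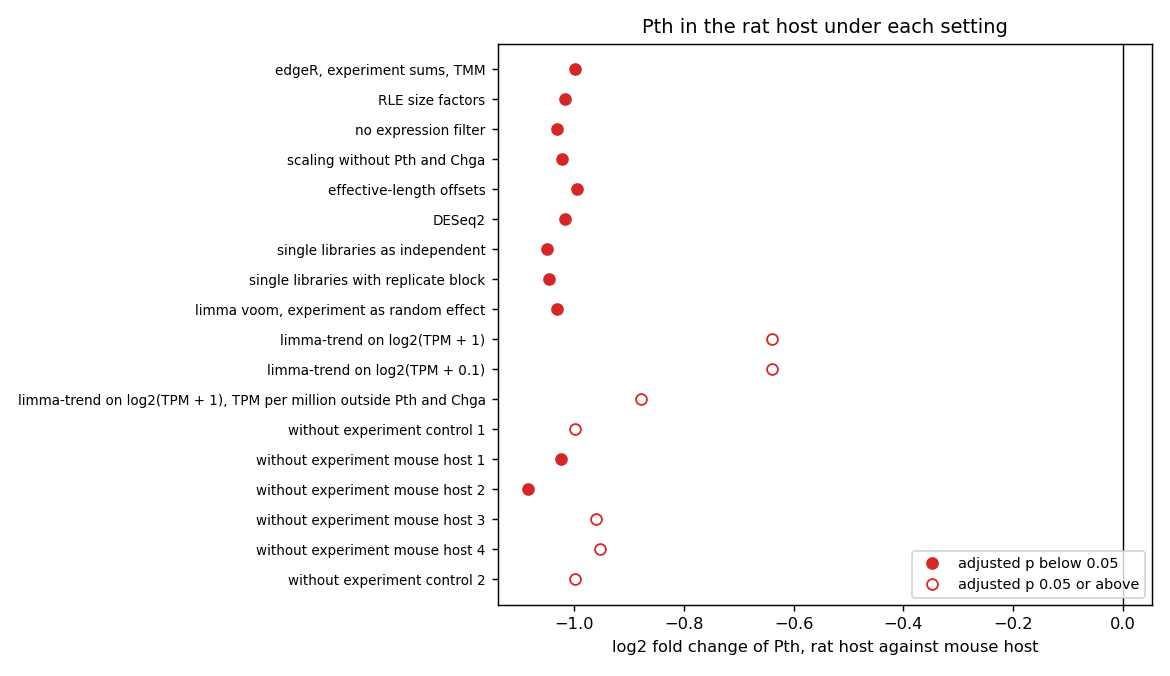
log2 fold change of Pth in the rat host against the mouse host under each setting of the analysis, filled where the adjusted p was below 0.05 and open where it was not. Every setting lies below 0, from -1.08 without mouse-host experiment 2 to -0.64 on TPM.

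Other properties of the rat-host libraries were read beside the low Pth level, whether or not they differed from the other arms. Their part in that level was not tested. Mitochondrially encoded transcripts took 1.62% of reads in the rat host, against experiment means of 1.69% to 3.11% in the mouse host, 2.85% in the control arm and 3.41% in the graft. Effective length of Pth, which Salmon derives from the fragment lengths of a library, was 346.6 bases in the rat host, within the range of mouse-host experiment means of 342.8 to 364.3. The 8 fibroblast markers summed to 19.4 to 143 CPM in the rat host, 129 to 2693 in the mouse host, 215 to 3671 in the control and 152 to 555 in the graft, with Col1a2 at 0 in the rat host. Macrophage markers (7 of 7) were at 0 reads in the rat host. Their sums were also near 0 in most control and mouse-host libraries, with medians of 0.0420 and 0.0452 CPM. In the graft the median was 3.02 CPM, and the highest library was control experiment 2 replicate 3 at 68.6 CPM. Thyroid follicle markers summed to at most 4.50 CPM in any library, endothelial markers to at most 2.21 CPM, and the 6 genes for other peptide hormones had no reads. Thyroid C cell markers reached 22.2 CPM in control experiment 2 replicate 4, and at most 4.52 CPM in the rat host. Muscle markers reached 63.2 CPM in mouse-host experiment 3 replicate 3, and at most 6.57 CPM in the rat host. Thymus epithelium markers (5 listed) were highest in the rat host, at 9.40 to 35.0 CPM with a median of 23.6, against medians of 8.19 in the mouse host, 11.8 in the control and 11.1 in the graft, and Foxn1 was at 0 in every arm. The parathyroid markers, of which Pth and Chga supply most of the sum, all had reads in each arm.

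The graft had the highest mean Pth level in CPM, above each of the 4 mouse-host experiment means. By mean share of TPM the graft (23.74%) was below control experiment 1 (24.02%) and mouse-host experiment 4 (23.75%). The graft's differences from the mouse host and from the control did not pass the test. Its log2 fold change was 0.27 (SE 0.13, adjusted p 0.464, edgeR) against the mouse host, where 0.115% of genes were called and 0.0191% called higher, and 0.11 (SE 0.15, adjusted p 0.859, edgeR) against the control, where 0.0382% were called. Within arms, the 4 mouse-host experiments spanned 0.30 log2 units of mean level, from experiment 2 to experiment 4, and the F-test among them gave an adjusted p of 0.470 (edgeR, 1.35% of 12195 genes called). Control experiment 1 was above control experiment 2 by 0.13 log2 units (SE 0.08, adjusted p 0.981, edgeR, 0.0173% of 11544 genes called). Sex, age and depth differ between these control experiments and cannot be told apart.

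Replicate libraries of an experiment differed less in Pth than in most other genes. Over 3299 genes averaging at least 50 CPM, the SD of log2 CPM within an experiment had a median of 0.373, while that of Pth was 0.185 and that of Chga 0.146. Only 3.09% of these genes varied less than Pth. Pth and Chga also had the most reads of all genes, and the cells were picked by a Pth reporter. The part of abundance and of this choice of cells in the low spread was not tested. Between experiments the ranking was different, as the SD of the 8 experiment means was 0.422 for Pth and 78.7% of genes had a lower one. With the rat host left out it was 0.159, with 15.4% of genes lower.

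Pth was also read against Chga, which is in the same libraries and so shares their depth and scaling. In control experiment 1 there were 0.501 ± 0.0257 Pth reads per Chga read (SD, n = 4) and in control experiment 2 there were 0.415 ± 0.0406 (SD, n = 4). Mouse-host experiments 1 to 4 had ratios of 0.411 ± 0.0771, 0.355 ± 0.050, 0.438 ± 0.0151 and 0.467 ± 0.0955 (SD, n = 4 each). The ratio was 0.357 ± 0.0125 in the rat host and 0.537 ± 0.103 in the graft (SD, n = 4 each). The rat host thus lay level with mouse-host experiment 2, whose libraries ranged from 0.283 to 0.396, and the 4 rat-host libraries at 0.344 to 0.372 were inside that range. Per length, as TPM of Pth over TPM of Chga, the ratio was 1.54 ± 0.0606 in the rat host, 1.52 in mouse-host experiment 2 and 1.71 to 2.24 in the other 6 experiments. In the graft, replicate 2 was highest of all libraries at 0.687 reads per read, and the other graft libraries were at 0.457, 0.489 and 0.516.

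On the log2 scale the ratio of reads in the rat host minus the mean of the mouse-host experiments was -0.21, where the SD between mouse-host experiment means was 0.168. Pth and Chga were both called lower in the rat host. Chga went from 214519 CPM in the mouse host to 121051 in the rat host, a log2 fold change of -0.78 (SE 0.09, adjusted p 0.0226, edgeR). Of the 28 pairs of experiments, 11 had a ratio that differed at the smallest exact permutation p of 0.0286, and none passed adjustment (smallest adjusted p 0.0727, exact permutation test). As for the level, the smallest possible p limits what adjustment over 28 pairs can pass. Of those 11 pairs, 4 involved the rat host and 7 did not. For Chga alone the 7 pairs with the rat host reached that p and no others did.

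**Figure D3:**
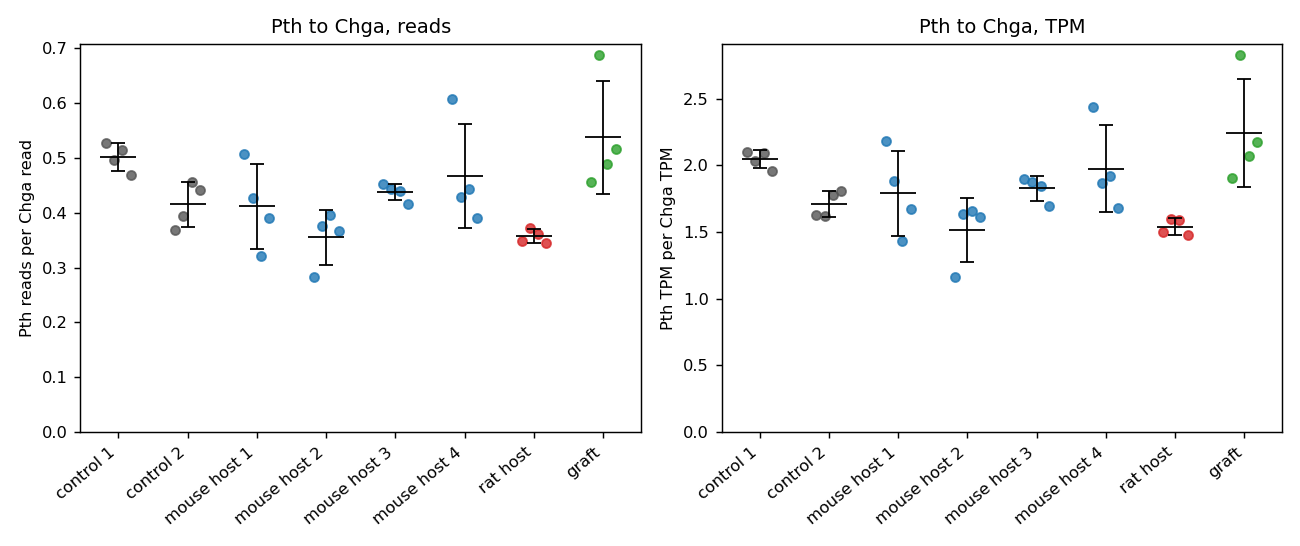
Pth reads per Chga read (left) and Pth TPM per Chga TPM (right) for the 32 libraries by experiment, where points are libraries and black bars are the mean and SD of 4. Rat-host libraries at 0.344 to 0.372 reads per read lie inside the range of mouse-host experiment 2, and graft replicate 2 is the highest at 0.687.

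Genes that act on Pth transcription were measured beside it, and none of the 12 on the list was called by edgeR or DESeq2 in any of the 5 arm comparisons. Of all 15698 genes, edgeR called 0.0% to 0.643% in these comparisons, so 0 calls in so short a list is near that share. DESeq2 called more genes than edgeR in each of them. In the rat host against the mouse host, 10 of the 12 had a positive log2 fold change, with a median of 0.22 against -0.03 over all genes tested. Gcm2, the factor the hosts lack, averaged 658 CPM in the control, 964 in the mouse host, 708 in the rat host and 559 in the graft. Gata3, which acts with Gcm2 on Pth transcription, was at 419, 577, 635 and 373 CPM in that order of arms. For Vdr, the vitamin D receptor, the arm means lay between 443 and 562 CPM. The smallest adjusted p of the list there was 0.489 (edgeR).

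Genes for proteins that bind Pth mRNA in rodents or act on its binding proteins were also not called in any comparison by edgeR (0 of 5). Of all 15698 genes, edgeR called at most 0.643% in an arm comparison. Over the 8 experiments the mean level per length was 6.75 TPM for the stabilising Hnrnpd and 0.288 TPM for the destabilising Khsrp.

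Sensors of calcium and FGF23 gave 0 calls in edgeR among 8 tested of 9 listed genes, as Fgfr3 had no reads. Here too, edgeR called at most 0.643% of all 15698 genes in an arm comparison. DESeq2 called many more, so a call by DESeq2 alone is weaker evidence. Casr, the calcium-sensing receptor, averaged 660 CPM in the control, 601 in the mouse host, 378 in the rat host and 417 in the graft. Its log2 fold change of rat host against mouse host was -0.63 (SE 0.26, adjusted p 0.411, edgeR). Kl, which encodes Klotho, was at 538 to 682 CPM across the rat-host libraries and at 603 on average, against 1131 in the mouse host. Its log2 fold change was -0.85 (SE 0.26, adjusted p 0.232, edgeR), and DESeq2 called it lower. Over the list the median in that comparison was -0.33, with 6 of 8 negative, against -0.03 over all genes. The shift was not particular to the rat host. In the graft against the mouse host the median was -0.51, also with 6 of 8 negative, against -0.09 over all genes.

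Genes for entry of the precursor into the endoplasmic reticulum and for its cleavage had 0 calls in edgeR among 17 tested of 19 listed, while DESeq2 called Sec61a1 higher and Sec11c lower in the rat host against the mouse host. In that comparison edgeR called 0.643% of all 15698 genes, and DESeq2 called many more, as counted in the section on processing below. The DESeq2 calls were not set against its own share of genes called and are not read as a result about the list. Sec61a1, the channel through which the precursor passes, had a log2 fold change of 0.81 (SE 0.18, adjusted p 0.110, edgeR) in the rat host against the mouse host. In the graft against the mouse host, the signal peptidase subunit gene Spcs1 had one of 0.83 (adjusted p 0.110, edgeR), with a mean of 684 CPM against 389. For the convertases that cut the propeptide, Furin averaged 6.01 to 8.38 CPM and Pcsk7 averaged 17.2 to 31.6 CPM over the arms. Pcsk1 had no reads, and Pcsk2, the other convertase of many endocrine cells, had 17 reads in all 32 libraries. The carboxypeptidase gene Cpe was at 239 to 317 CPM.

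Granule partners were the one list with calls in edgeR on experiment sums, 2 lower of 5 tested and 9 listed in both rat-host comparisons. Over all 15698 genes tested, 0.427% were called lower against the mouse host and 0.229% against the control. Besides Chga, this was Scg5, which encodes 7B2, a chaperone of the Pcsk2 protein. Scg5 was at 6.79, 2.40, 4.19 and 6.62 CPM in the rat host. In the graft it was at 107, 56.8, 98.5 and 68.7 CPM, and the 16 mouse-host libraries ranged from 33.4 to 121 CPM. The rat-host values were below all others, with a log2 fold change of -3.82 (SE 0.53, adjusted p 0.0344, edgeR) against the mouse host and -4.28 (adjusted p 0.0288, edgeR) against the control. The Scg5 call was kept on TPM. The Chga call was not, with -0.45 against the mouse host (adjusted p 0.290, limma on log2(TPM + 1)) and -0.41 against the control (adjusted p 0.359). Without control experiment 1 or 2 both Scg5 calls were lost (adjusted p 0.0835 to 0.130, edgeR). Scg2 had no reads, Scg3 had 4 and Chgb 74 in all libraries together.

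**Figure D4:**
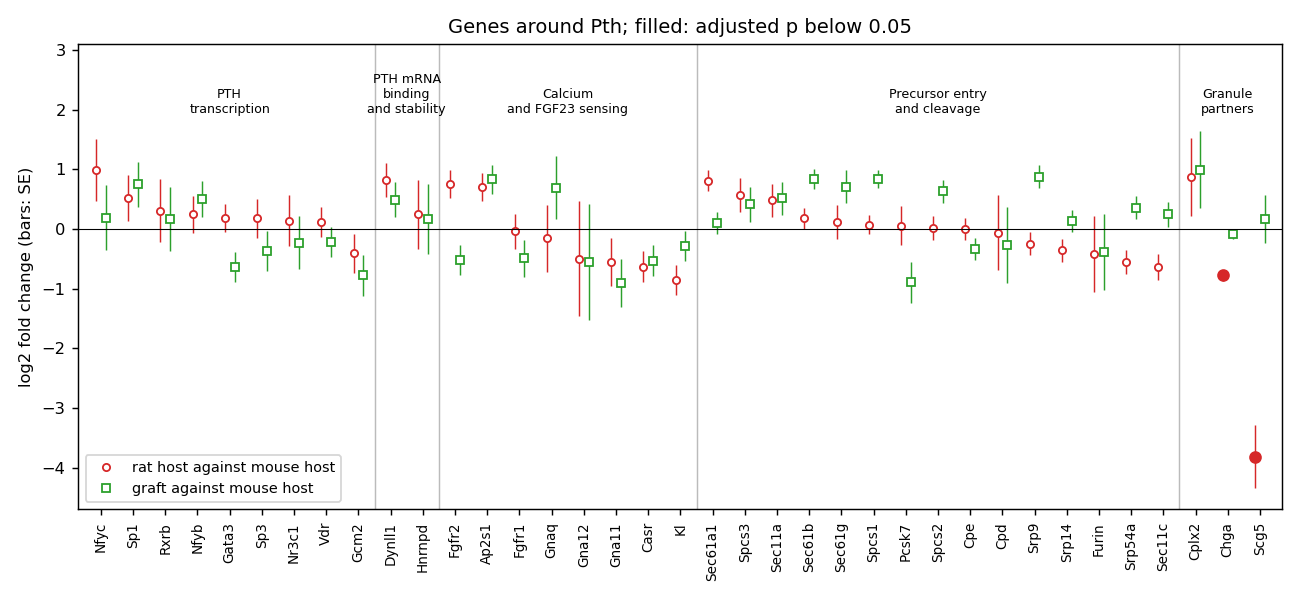
log2 fold changes with SE of 37 listed genes averaging at least 5 CPM over the arms, for rat host against mouse host (circles) and graft against mouse host (squares), grouped by role; filled symbols have an adjusted p below 0.05. Chga at -0.78 and Scg5 at -3.82 in the rat host are the filled ones.

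Genes most like Pth were named by Pearson r over 3243 genes averaging at least 50 CPM, without p-values. Within experiments, as deviations of the 32 libraries from their experiment means, r had a median of 0.0955 and reached 0.862 for Uqcr11, a subunit of respiratory complex III (Spearman rho 0.741). Next came Ndufa7 (0.817), a complex I subunit, Cdc123 (0.816), an assembly factor of translation initiation factor eIF-2, and the complex I subunits Ndufc2 (0.816) and Ndufc1 (0.803). They were followed by Ubl5 (0.796), Znhit1 (0.796) and Ndufa3 (0.772). The most negative were Lrp10 (-0.764), a receptor of the LDL receptor family, Ddb1 (-0.744), a ubiquitin ligase adaptor, the lysosomal enzyme gene Naglu (-0.730), the deacetylase gene Hdac6 (-0.729) and the kinase gene Gak (-0.729). Chga had an r of 0.342 and stood at place 723. Without the 2 libraries farthest from the median of Pth, r was 0.757 for Uqcr11 and 0.795 for Ndufc2. It was then -0.594 for Lrp10 and -0.556 for Ddb1.

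Across the 28 libraries outside the rat host, Ndufc2 (r 0.888, rho 0.909) and Ndufc1 (0.874) led. Behind them were the ATP synthase subunit Atp5k (0.839), Uqcrb of complex III (0.839), the mitochondrial chaperonin gene Hspe1 (0.838), Nop10 (0.832), Rps27l (0.830) and Cox7c of complex IV (0.8294). The lowest were Lrp10 (-0.856), Ddb1 (-0.774), the elongation factor gene Eef2 (-0.759), the lysosomal glucosidase gene Gaa (-0.748) and Irak1 (-0.746). This and the measure within experiments had Ndufc1, Ndufc2, Lrp10 and Ddb1 in common, and the libraries are largely the same. In mouse-host experiment 4, replicate 1, with the highest Pth, also had 220 CPM of Ndufc2 against 126 to 136 in the other 3 replicates, and 67.3 CPM of Lrp10 against 244 to 260.

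Within experiments and outside the rat host, the most similar genes were short, as Pth is, and the most dissimilar long. The 8 highest genes within experiments had a median effective length of 258 bases and the 5 lowest 3674, against 1515 over all 3243 genes and 359 for Pth. By r over the 8 experiment means, the 5 highest had a median of 830 bases and the 5 lowest 1457, so those lowest were not long. When the 3243 genes were split into 4 equal groups by effective length, the median r within experiments was 0.373 in the shortest group, 0.127 and 0.0295 in the next, and -0.131 in the longest. On log2(TPM + 1) the 4 medians were -0.105, -0.110, -0.143 and -0.181. Single genes changed too, as r on TPM was 0.0949 for Ndufc1, 0.147 for Cdc123, 0.478 for Uqcr11 and 0.583 for Ndufc2, and -0.589 for Lrp10. Within experiments, log2 CPM of Pth had an r of 0.557 (rho 0.461) with its own effective length, 0.516 (rho 0.406) with the mitochondrial share of reads and 0.220 (rho 0.166) with log2 of total reads, over 32 libraries. Without the 2 libraries farthest from the median these were 0.320, 0.300 and 0.344. The part of fragment length in the likeness was not tested.

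**Figure D5:**
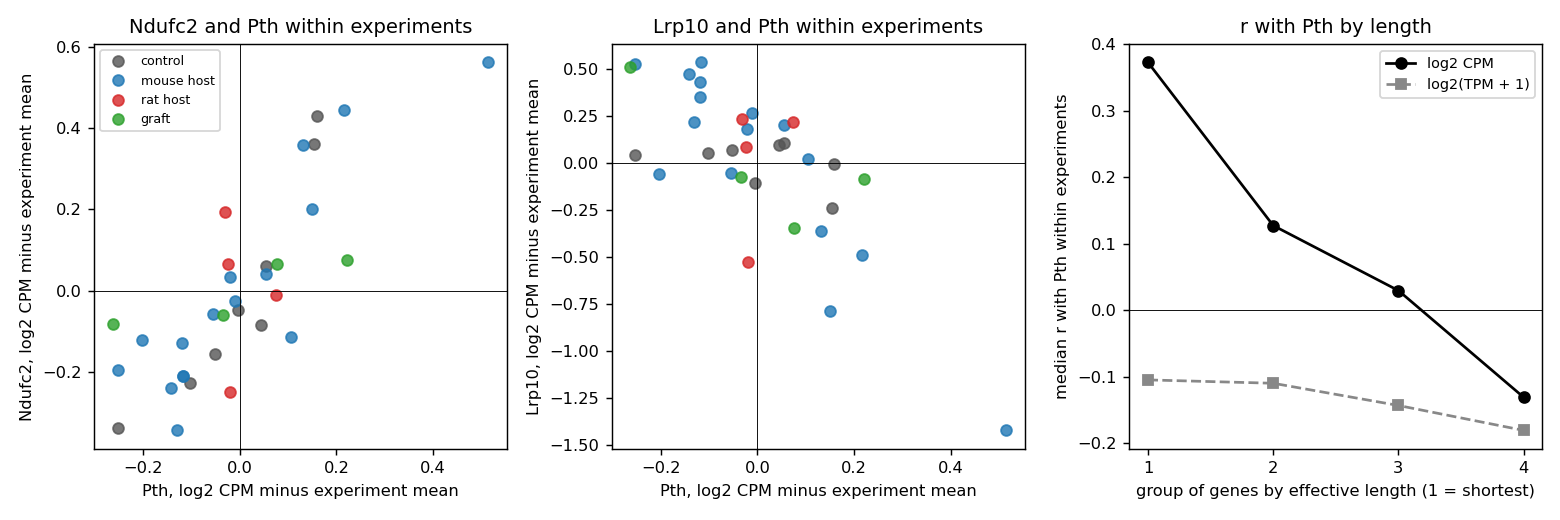
Deviations of log2 CPM from the experiment mean for Ndufc2 (left) and Lrp10 (middle) against those of Pth in 32 libraries, coloured by arm, and the median r with Pth in 4 equal groups of 3243 genes by effective length (right). Libraries with more Pth have more Ndufc2 and less Lrp10, and the median r on log2 CPM drops from 0.373 in the shortest group to -0.131 in the longest, whereas on TPM all 4 medians are below 0.

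Over the 8 experiment means, where the rat host is 1 point far from 7 others, r was highest for Pfdn5 (0.983), a prefoldin subunit, Serinc3 (0.966), Mrpl11 (0.966), the crystallin gene Cryba2 (0.964) and Efr3a (0.964). It was lowest for the matrix protease gene Mmp14 (-0.980), cyclin D3 gene Ccnd3 (-0.973), the retinoic acid synthesis gene Aldh1a3 (-0.968), Nt5dc2 (-0.964) and Nudt16l1 (-0.964). Without the 2 experiments farthest from the median of Pth, r was 0.969 for Pfdn5, 0.616 for Serinc3, 0.462 for Cryba2 and -0.604 for Nt5dc2. On log2(TPM + 1) r was 0.194 for Efr3a, 0.808 for Pfdn5, 0.879 for Mrpl11, 0.938 for Cryba2 and 0.952 for Serinc3. The 5 lowest genes were then at -0.981 to -0.950. In the 4 rat-host libraries Cryba2 was at 89.5, 121, 155 and 147 CPM, while its mean was 799 in the mouse host and 1458 in the graft. Nt5dc2 was at 541, 458, 477 and 515 CPM in the rat host and averaged 47.6 in the mouse host. Chga had an r of 0.884 with Pth over the 8 means but a rho of -0.0476.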

How the data were processed

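RNA of 10 to 20 picked cells per library was measured in 32 libraries. Per the submitters' processing notes the authors used Salmon and GRCm39, the version and annotation being not given in the sources used here. Columns of each deposited table hold a transcript's expected counts of reads, TPM, length and effective length, per the file headers. Of 116747 transcripts, 115685 matched GENCODE M21, which supplied gene names. The 1062 others held 0.493% of reads and were left out. Expected counts were summed per gene and rounded. Libraries form 8 experiments in 4 arms, and the 48 pairs within experiments all differed beyond sampling noise (lowest chi-square per degree of freedom 41.0).

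Counts were summed per experiment and fitted with 1 coefficient per arm, with 4 residual degrees of freedom (TMM scaling and the quasi-likelihood test of edgeR 4.0.16, default filter, R 4.3.3, Benjamini-Hochberg adjustment over all genes, called below 0.05). Comparisons within an arm used single libraries. Alternatives used DESeq2 1.42.0 and limma 3.58.1 (on TPM with pseudocounts of 1 or 0.1). Fits were tested on simulated data. Exact permutation tests used SciPy 1.17.1. A p-value here covers only the spread among the libraries or experiments at hand, part of which may be technical.

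The gene, the lists and the tests were chosen with earlier results of these data known. The rule for named genes takes the highest 8 and lowest 5 genes by r within experiments and outside the rat host, the highest 5 and lowest 5 over experiment means (log2 CPM, prior count 1, mean of at least 50 CPM, no symbol of the Gm or Rik kind), and the members of 6 lists. A few list members are not reported here.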

Additional observations from a re-analysis of the deposited data

Results flagged for a closer look

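In 64 sets of 4 libraries (8 quantities in 8 experiments), 7 had a lowest or highest library farther from the nearest other than Dixon's critical value for 4 samples allows, where chance gives about 1 in 20 (5.0%). Several of the quantities are drawn from the same Pth reads, so the sets are not independent and that share is only a rough guide. Mouse-host experiment 4 replicate 1 stood apart by Pth level at 136900 CPM, by Pth share of reads at 12.1%, by Pth TPM at 260481 and by effective length of Pth at 384 bases. The log2 fold change of Pth in the rat host against the mouse host was -0.95 (adjusted p 0.0324, edgeR) without that library. Rat-host replicate 1 stood apart by Pth level at 45403 CPM, above 3 libraries that lay within 42200 to 42536. Rat-host replicate 3 had the shortest effective length of Pth in its experiment at 338 bases. Mouse-host experiment 2 replicate 1 had the lowest ratio of Pth to Chga by TPM of all 32 libraries, at 1.16.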

How the results depend on the processing

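The fall of Pth in the rat host kept its direction in all 49 alternatives of each comparison. Against the mouse host it was past the threshold in 42 of them and was not on log2(TPM + 1) at -0.64, on log2(TPM + 0.1) at -0.64, on TPM rescaled outside Pth and Chga at -0.88 (an alternative added after the data were seen), without control experiment 1 at -0.998, without control experiment 2 at -0.998, without mouse-host experiment 3 at -0.96 and without mouse-host experiment 4 at -0.95. Against the control it was past it in 40 of 49 and was not on TPM (-0.69 with either pseudocount, and -0.94 outside Pth and Chga), without control experiment 1 (-1.08) or 2 (-1.23) and without mouse-host experiment 3 (-1.16). Leaving out 1 library gave -1.19 to -1.13, and without mouse-host experiment 1 replicate 1 or experiment 4 replicate 3 or 4 the adjusted p was 0.0507, 0.0519 and 0.0514 (edgeR). Fewer experiments also leave fewer residual degrees of freedom. Of the 49 alternatives, 32 left out 1 library from the main fit and so stayed close to it. Of these 32, 0 lost the call against the mouse host and 3 lost it against the control. All 7 losses against the mouse host were thus among the remaining settings. Some settings that kept the call took single libraries as independent, which leaves out the spread between experiments. The cause of the lower value on TPM was not tested. For the rat host against the mouse host the count of called genes was 101 in edgeR on experiment sums, 1045 in DESeq2, 1043 in limma voom, 392 on log2(TPM + 1), 776 with single libraries and 12 without control experiment 1 or without 2. For the rat host against the control these counts were 41, 1031, 1373, 407, 891 and 6, for the graft against the mouse host 18, 1253, 316, 134, 477 and 2, and for the graft against the control 6, 792, 147, 61, 177 and 1 to 3. The other comparisons of Pth, its ratio to Chga and the counts of pairs kept their side of the threshold in every alternative run. Chga lost its rat-host call against the mouse host in 7 of 49 alternatives and Scg5 in 4, and against the control in 8 and 3. Of 180 alternatives for the genes like Pth, 62 moved r by more than its standard error on the Fisher z scale and 0 reversed its sign.

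Replicate numbers do not pair the samples, since same-numbered libraries of different experiments had correlations of -0.294 to 0.209 (median 0.0019, 8 of 112 pairs above 0.1) and 7 of 32 libraries correlated best with their own number. With the replicate number as a block, single libraries gave -1.05 for the rat host against the mouse host (adjusted p 4.92e-07, edgeR) with 820 genes called, and the block changed no call of Pth. That fit counts the libraries of 1 experiment as independent repeats of an arm. Its p therefore leaves out the spread between experiments and overstates the evidence.

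Counting error of Pth was small at these depths. Precision was limited by 4 libraries per experiment, by 1 experiment each for rat host and graft, and by the absence of molecular identifiers.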
